A study of Mus musculus with 6 samples.

Results

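Genes of the interferon response and of antigen presentation on class I molecules were followed from drug-sensitive to drug-resistant mammary cells of the mouse. The list holds 45 genes, named for their known place in the pathway. It was chosen with earlier results of these data known. Each gene was represented by the brightest probe set that carried its symbol alone. By this rule 42 of the 45 genes were measured, among 19938 genes in all. Isg15 and Gbp2 lay only on probe sets shared with other genes and no probe set was named for Ifi44, so these 3 are not analysed here. NME cells are NMuMG cells, an epithelial line from the normal mouse mammary gland, transformed by stable viral overexpression of the growth factor receptor EGFR. AGR cells descend from NME cells and carry the same EGFR overexpression: a colony that grew large in 3D culture under 1 µM AG1478, an inhibitor of the EGFR kinase, was picked by hand, expanded in ordinary 2D culture and shown to be resistant. Both lines were grown in DMEM with serum and insulin, and by the paper's methods resistant lines, once established, were kept without drug. The AGR line is a single colony, so a difference between the lines cannot be told apart from a difference of that colony. For each line 3 arrays of the Affymetrix Mouse Gene 1.0 ST type were hybridized with total RNA. The labels do not say whether the 3 came from separate cultures, and each p-value below therefore reflects array-to-array spread alone, which may be technical.

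Interferons are secreted proteins by which cells warn of viruses. Type I interferons bind Ifnar1 with Ifnar2 and type II interferon (interferon gamma) binds Ifngr1 with Ifngr2. Through JAK kinases the receptors activate transcription factors, and these reach the induced genes at promoter elements called the ISRE, bound by a complex that holds Stat2 and Irf9, and the GAS. The induced genes include sensors of viral RNA, antiviral effectors, and the peptide-cutting, transporting and loading machinery that places peptides on class I molecules at the surface. Epithelial cells are known to keep part of this programme at a low level without infection.

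The promoters of 5 members are shown because these genes share or lack the ISRE and yet differed from each other in how they changed between the lines. Each sequence covers 250 bases before and 50 bases after a RefSeq transcription start on assembly GRCm38.p6, written in the direction of the gene. Capitals mark the ISRE letters GAAANNGAAA, searched on both strands, so that some appear as the reverse complement.
Ifit1 (chr19:34640639-34640938, strand +): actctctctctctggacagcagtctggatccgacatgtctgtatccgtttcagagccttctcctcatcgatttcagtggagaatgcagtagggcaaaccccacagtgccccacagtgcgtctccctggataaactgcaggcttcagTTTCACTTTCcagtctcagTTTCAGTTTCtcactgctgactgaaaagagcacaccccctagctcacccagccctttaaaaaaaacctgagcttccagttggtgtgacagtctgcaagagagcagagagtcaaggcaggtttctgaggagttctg
Ifit2 (chr19:34550444-34550743, strand +): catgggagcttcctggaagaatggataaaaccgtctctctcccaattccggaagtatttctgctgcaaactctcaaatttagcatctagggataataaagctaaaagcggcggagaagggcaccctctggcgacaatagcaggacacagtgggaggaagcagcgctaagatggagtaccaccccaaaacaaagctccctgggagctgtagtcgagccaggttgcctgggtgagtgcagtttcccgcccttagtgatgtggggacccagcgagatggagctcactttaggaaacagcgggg
Ifit3 (chr19:34583279-34583578, strand +): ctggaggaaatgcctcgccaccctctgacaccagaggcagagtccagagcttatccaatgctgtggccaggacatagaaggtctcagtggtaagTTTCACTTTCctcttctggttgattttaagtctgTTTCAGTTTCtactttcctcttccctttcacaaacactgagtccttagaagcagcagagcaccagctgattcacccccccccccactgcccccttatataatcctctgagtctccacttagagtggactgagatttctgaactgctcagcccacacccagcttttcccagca
B2m (chr2:122147437-122147736, strand +): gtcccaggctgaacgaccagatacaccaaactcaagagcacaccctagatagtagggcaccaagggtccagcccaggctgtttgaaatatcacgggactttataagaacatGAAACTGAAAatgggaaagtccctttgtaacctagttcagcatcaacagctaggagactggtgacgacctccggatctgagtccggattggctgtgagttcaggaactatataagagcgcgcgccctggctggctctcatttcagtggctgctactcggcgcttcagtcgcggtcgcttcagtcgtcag
Ifih1 (chr2:62646206-62646505, strand -): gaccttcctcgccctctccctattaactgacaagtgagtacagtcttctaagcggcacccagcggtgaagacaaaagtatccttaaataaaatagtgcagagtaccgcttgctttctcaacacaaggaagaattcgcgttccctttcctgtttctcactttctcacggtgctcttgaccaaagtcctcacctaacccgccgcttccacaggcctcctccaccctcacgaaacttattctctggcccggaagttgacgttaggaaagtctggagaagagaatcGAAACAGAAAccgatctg
In these windows Ifit1 and Ifit3 each held the motif at 2 places, Ifit3 at 156 and 122 bases before its start and Ifit1 at 104 and 85 bases before its start. B2m held it once, 139 bases before the start, and Ifih1 once, 33 bases into the gene. Ifit2 held no ISRE letters in the window printed nor in a window around its other listed start, which says only that these letters are not there. It held the GAS letters TTCNNNGAA, also searched on both strands, 241 bases before the start printed.

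A RefSeq promoter was at hand for 35 of the measured members. The ISRE letters were found in 14 of these 35 (40%), against 3.99% of 27025 genes with a promoter. The GAS letters were found in 10 of the 35 (28.6%), against 9.55% of all. Of the members called higher in AGR cells (by the test described with the next results), 3 of 6 held the ISRE letters, namely B2m, Ifit3 and Trim30a. Of those called lower with a promoter, 1 of 5 held them, namely Ifih1, and of the members not called, 10 of 24 did. A match is a description of the letters and not evidence that a factor binds there.

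The arrays were much alike within a line (Pearson r across probe sets of at least 0.995) and less so between lines (at most 0.988). Median intensities lay between 190.4 and 200.8, and no array was rescaled. The deposited values of 12 members (28.6%) were identical on at least 2 arrays, as were those of 31.3% of all genes, which makes the spread of such genes look smaller than it may be. The second array of each line read the lowest of its line for 11 members (26.2%, against 18.4% of all genes), among them Ifit2, Ifit3, Irf1, Stat2, Tap1, Tapbp and Ifngr2. It is stated again beside Stat2 and Irf1 and can be read from the array values given below for Ifit2, Ifit3, Tapbp and Ifngr2. For Tap1 the second arrays read 7.73 in NME and 8.02 in AGR cells.

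The members that differed between the lines went both ways. The 3 AGR arrays were set against the 3 NME arrays by limma on log2 of the intensity, and a gene was called when its p-value, adjusted by the Benjamini-Hochberg method over all 19938 genes, was under 0.05. Of the 42 members, 6 were called higher in AGR cells (14.3%), where 12.6% of all genes were, and 6 were called lower (14.3%), where 11.6% of all genes were. These shares are near the background. Ifit2, Ifit3, B2m, Tap1, Trim30a and Psmb10 rose, and Ifngr2, Ifih1, Tapbp, Ifngr1, Usp18 and Ifnar2 fell. The other 30 had log2 fold changes (AGR over NME) between -0.17 and 0.26. The median over the members was -0.01, beside -0.02 over all genes, and it moved to either side of 0 when single arrays were left out. A fold change above 2 together with the call was reached by 2 members, Ifit2 and Ifngr2, where 3.00% of all genes reached it. The arrays of the lines did not overlap for 17 of the 42 members, where this held for 36.4% of all genes. At an unadjusted p under 0.05, limma added Ifitm3 and the methods' t-test added Ifitm3 and Parp14. With that t-test after Benjamini-Hochberg adjustment the calls of Ifit2, Trim30a, Ifnar2 and Ifit3 were lost (adjusted p 0.0649, 0.086, 0.116 and 0.128). In bulk RNA such as this, fewer cells that express a gene and less RNA per cell cannot be told apart.

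**Figure D1:**
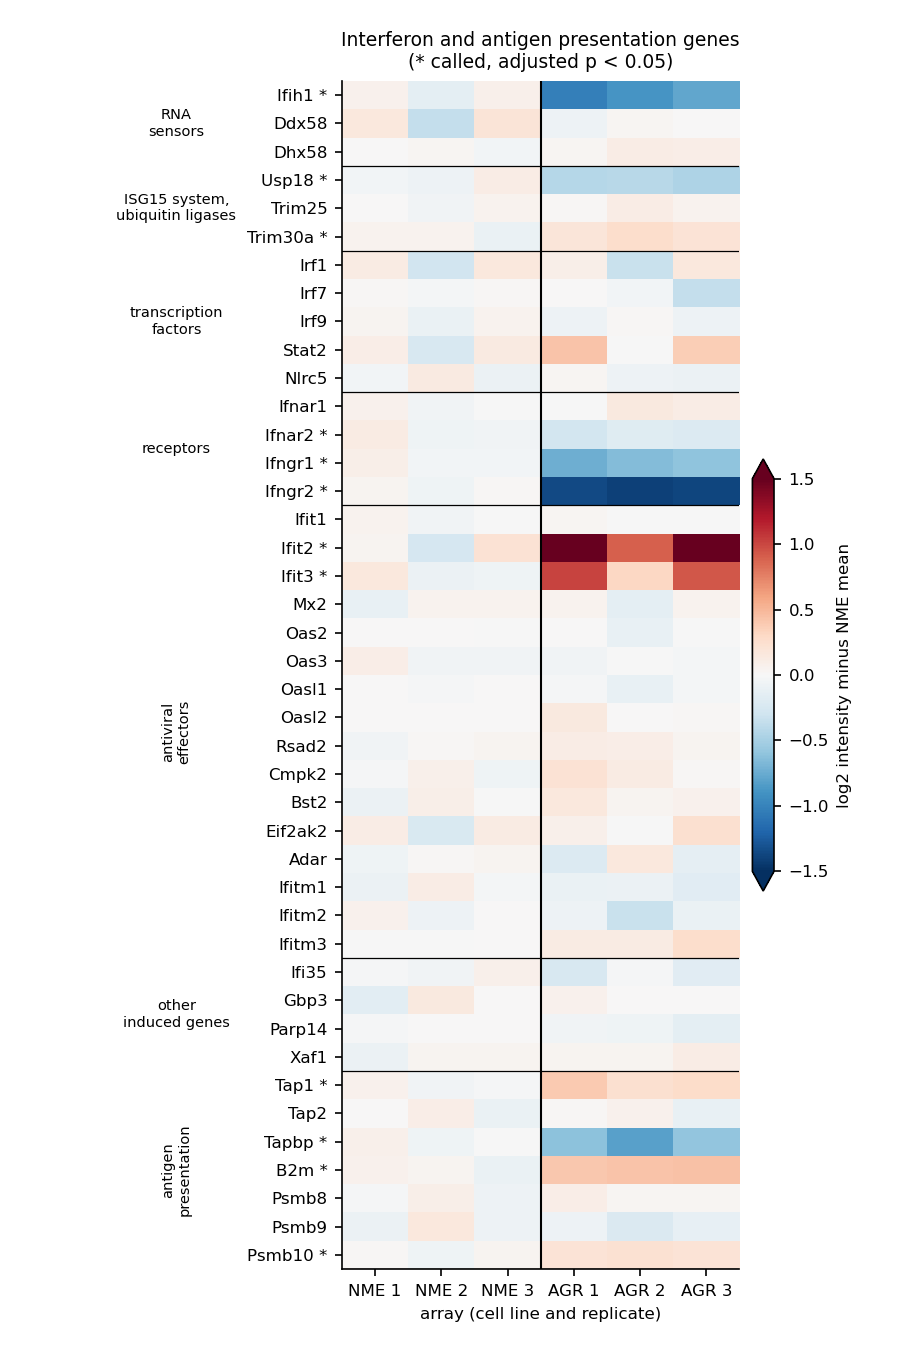
Heat map of log2 intensity minus the mean of the NME arrays for the 42 measured members (rows, grouped by role) on 3 NME and 3 AGR arrays (columns), with red above and blue below the NME mean, the colour scale ending at 1.5 in either direction, and a star for genes called by limma. Strong colour is seen on the AGR side for a handful of genes, red for Ifit2 and Ifit3 and blue for Ifngr2, Ifngr1, Ifih1 and Tapbp, while the rows of the transcription factors and of most antiviral effectors stay pale.

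Of the 4 receptor genes, 3 were called lower and none higher, where 11.6% and 12.6% of all genes were. Ifngr2, the chain of the interferon gamma receptor that brings in Jak2, read 12.84, 12.74 and 12.82 on the NME arrays and 11.45, 11.40 and 11.42 on the AGR arrays (log2 intensity). Every AGR array lay more than a doubling below every NME array. The mean fell by 1.38 on the log2 scale (SE 0.05, 2.60-fold lower, limma adjusted p = 6.0e-06), the change with the smallest adjusted p among the members. Ifngr1, the chain that binds the ligand, read 13.12, 13.00 and 12.99 in NME cells and 12.31, 12.39 and 12.44 in AGR cells. The lines did not overlap, and the mean fell by 0.66 (SE 0.06, 1.58-fold lower, limma adjusted p = 3.4e-04). Both chains of the receptor for interferon gamma were thus measured at a lower level in the resistant line, and both calls held whichever array was left out.

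The receptor for type I interferon showed smaller differences. Ifnar2 read 10.78, 10.60 and 10.61 in NME cells and 10.39, 10.48 and 10.46 in AGR cells, without overlap. It fell by 0.22 (SE 0.06, limma adjusted p = 0.0452), and the call was lost without any 1 of the 6 arrays, with adjusted p-values from 0.0608 to 0.132. Ifnar1, its partner chain, read 10.40, 10.28 and 10.32 in NME cells and 10.33, 10.48 and 10.44 in AGR cells. These ranges overlapped, and the difference of 0.08 did not pass the test (limma adjusted p = 0.405).

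Of the RNA sensors, Ifih1 fell and the others did not pass the test. Ifih1 encodes MDA5, which detects long double-stranded RNA in the cytoplasm. It read 8.03, 7.83 and 8.04 on the NME arrays and 6.94, 7.08 and 7.18 on the AGR arrays, so that the lines were clearly apart. The mean fell by 0.90 (SE 0.09, 1.87-fold lower, limma adjusted p = 5.0e-04). Ddx58, which encodes the related sensor RIG-I, had a log2 fold change of -0.01, and Dhx58, which encodes their regulator LGP2, had 0.08. Dhx58 was dimmer in both lines than the median probe set (6.53 and 6.61, against 7.61), so no difference was detectable rather than none being present. Ddx58 varied among the NME arrays, with an SD of 0.31 that was larger than the difference between the lines.

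None of the 5 transcription factors passed the test in either direction (5 of 5 not called by limma). Of all genes, 12.6% were called higher and 11.6% lower, so most were not called either. Stat2, a subunit of the ISRE-binding complex, read 9.28, 8.94 and 9.31 in NME cells and 9.61, 9.17 and 9.54 in AGR cells. The second array of each line was the lowest of its line and the ranges overlapped, with a log2 fold change of 0.26 (SE 0.14, limma adjusted p = 0.267). Without both of these arrays, a setting added after seeing the data, the limma adjusted p was 0.0182. Irf9, the DNA-binding partner of Stat2, read 8.66, 8.52 and 8.67 in NME cells and 8.54, 8.63 and 8.53 in AGR cells, a log2 fold change of -0.05.

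Irf1, a factor downstream of interferon gamma, also read lowest on the second array of each line. It read 9.14, 8.73 and 9.18 in NME cells and 9.11, 8.68 and 9.18 in AGR cells, nearly the same values array by array, with a log2 fold change of -0.03. Irf7, which amplifies the type I response, read 7.20, 7.16 and 7.20 in NME cells and 7.20, 7.15 and 6.83 in AGR cells. Here 1 AGR array lay below all the others (log2 fold change -0.13, limma adjusted p = 0.427). Irf7 was dimmer in both lines than the median probe set (7.19 and 7.06, against 7.61). Nlrc5, the activator of class I genes, read 11.13, 11.31 and 11.09 in NME cells and 11.20, 11.09 and 11.08 in AGR cells on the brightest of its 19 probe sets. The difference of -0.05 was within the spread of the arrays. Of the 19 probe sets, 1 passed the test when all probe sets were tested, with a log2 fold change of -0.21 (limma adjusted p = 0.0407).

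**Figure D2:**
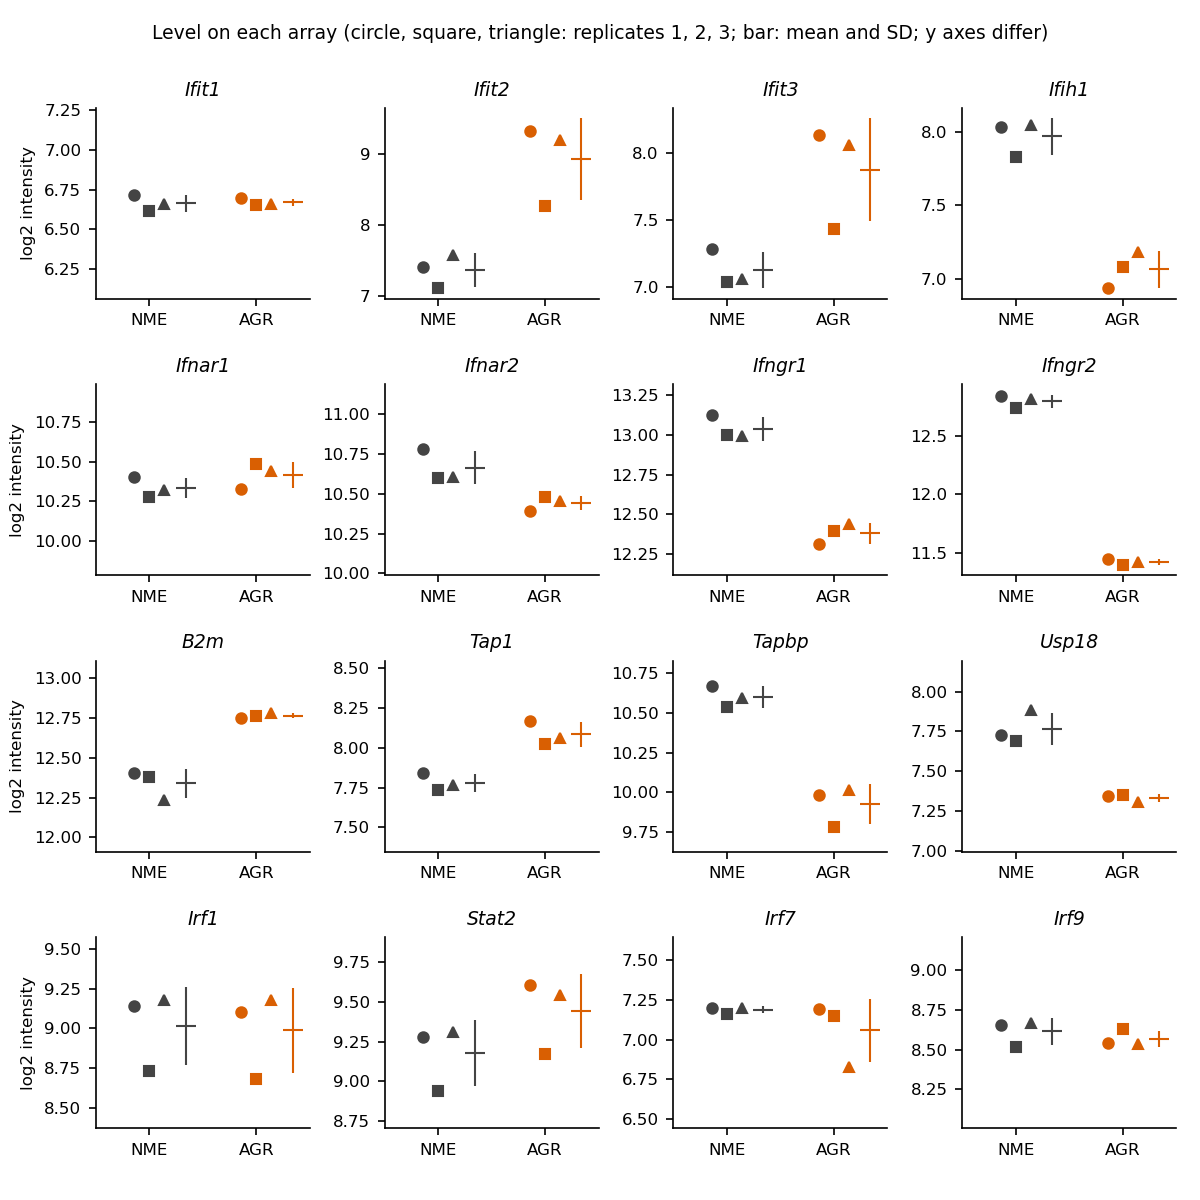
Log2 intensity on each of the 3 NME (grey) and 3 AGR (orange) arrays for 16 members, with a symbol for each replicate number and a bar for the mean and SD of each line; the y axes differ between panels. The lines are apart for Ifngr1, Ifngr2, Ifih1, Tapbp, Usp18, B2m and Tap1, Ifit2 and Ifit3 are higher in AGR cells with the second AGR array nearest to NME, and the symbols overlap for Ifit1, Ifnar1, Irf1, Irf7, Irf9 and Stat2.

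Among the 16 antiviral effectors, 2 members of the Ifit family rose (12.5%, beside 12.6% of all genes) and none fell. The Ifit proteins bind foreign RNA and block its translation. Ifit2 read 7.41, 7.11 and 7.58 in NME cells and 9.32, 8.27 and 9.20 in AGR cells, so the lowest AGR array still lay above the highest NME array. The mean rose by 1.56 on the log2 scale (SE 0.28, 2.95-fold, limma adjusted p = 0.00711), the largest rise among the measured members. The change ranged from 1.36 to 1.89 when single arrays were left out, and the call held each time.

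Ifit3 read 7.28, 7.03 and 7.06 in NME cells and 8.14, 7.44 and 8.06 in AGR cells. The lines did not overlap, but the second AGR array was close to the highest NME array. The mean rose by 0.75 (SE 0.19, 1.69-fold, limma adjusted p = 0.0261). The call was lost when any array other than the second AGR array was left out (highest adjusted p 0.114), and without that array the change was 0.97. Ifit3b, a close copy of Ifit3 with a probe set of its own, had a log2 fold change of -0.33 (limma adjusted p = 0.115), and how far the copies share signal was not tested. Ifit1, which recognizes viral RNA caps, read 6.72, 6.61 and 6.66 in NME cells and 6.69, 6.65 and 6.66 in AGR cells. Its levels overlapped entirely, with a log2 fold change of 0.01. Ifit1 was dimmer in both lines than the median probe set (7.61), so no difference was detectable rather than none being present. Its promoter printed above carries the ISRE letters at as many places as that of Ifit3.

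With Ifit1, 14 of the 16 effectors were not called, with log2 fold changes from -0.17 to 0.17. Beside Ifit1 these were the oligoadenylate synthetase genes and their relatives (Oas2, Oas3, Oasl1 and Oasl2), the GTPase gene Mx2, Rsad2 and its neighbour Cmpk2, which make an antiviral nucleotide, the virus tether Bst2, the RNA-dependent kinase gene Eif2ak2, the RNA editor Adar and the membrane proteins Ifitm1, Ifitm2 and Ifitm3. Ifitm3 came closest to the threshold, with 0.17 (limma adjusted p = 0.0603). The 3 probe sets of Ifitm2 read -0.17, -0.16 and -0.12, none of them called. Of the 16 effectors, 7 were dimmer in both lines than the median probe set (7.61). There were no detection calls to tell a dim gene from an absent one, so for these no difference was detectable rather than none being present.

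The ISG15 system tags proteins with a small ubiquitin-like modifier. Usp18, the protease that removes it and a brake on type I receptor signalling, had a mean of 7.77 ± 0.10 over the 3 NME arrays and of 7.33 ± 0.02 over the 3 AGR arrays (mean ± SD). It fell by 0.44 on the log2 scale (limma adjusted p = 0.0023). Trim30a, a TRIM family gene, rose by 0.22 (limma adjusted p = 0.0338), a call that was lost without any 1 of the arrays. It was dimmer in both lines than the median probe set (6.57 and 6.79, against 7.61). Its first and second NME arrays held an identical value, so its spread may be understated. Trim25, the ubiquitin ligase that acts on RIG-I, had 0.06 and was not called. Of the other induced genes, none of the 4 measured was called, namely Ifi35, Gbp3, Parp14 and Xaf1, with log2 fold changes from -0.14 to 0.06. Of all genes, 12.6% were called higher and 11.6% lower. Gbp3, Parp14 and Xaf1 were dimmer in both lines than the median probe set, so no difference was detectable rather than none being present.

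Of the 7 antigen presentation genes, 3 were called higher (42.9%, beside 12.6% of all genes) and 1 lower (14.3%, beside 11.6% of all genes). B2m, the light chain that every class I molecule needs, read 12.41, 12.38 and 12.23 in NME cells and 12.75, 12.76 and 12.79 in AGR cells. Every AGR array was above every NME array, and the mean rose by 0.43 (SE 0.06, 1.34-fold, limma adjusted p = 0.00192). Tap1, a subunit of the peptide transporter of the endoplasmic reticulum, rose by 0.30 (limma adjusted p = 0.00845), from 7.78 ± 0.06 to 8.08 ± 0.08 (mean and SD of 3 arrays each). Psmb10, a catalytic subunit of the immunoproteasome, rose by 0.21 (limma adjusted p = 0.0158). It read 9.18, 9.20 and 9.18 on the AGR arrays. The values of 9.18 were identical (9.1764), so its spread may be understated. Without the third AGR array the log2 fold change was also 0.21, and the call was narrowly lost (adjusted p 0.0502).

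Tapbp encodes tapasin, which bridges the transporter and the class I molecule. It read 10.67, 10.54 and 10.60 in NME cells and 9.98, 9.78 and 10.01 in AGR cells, without overlap and opposite in direction to Tap1 and B2m. The mean fell by 0.67 (SE 0.07, 1.60-fold lower, limma adjusted p = 8.9e-04). Tap2, the partner of Tap1, had a log2 fold change of -0.01. Psmb8 and Psmb9, the other catalytic subunits of the immunoproteasome, had 0.05 and -0.14. These 3 were not called. Psmb8 was dimmer in both lines than the median probe set (6.79 and 6.84, against 7.61).

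**Figure D3:**
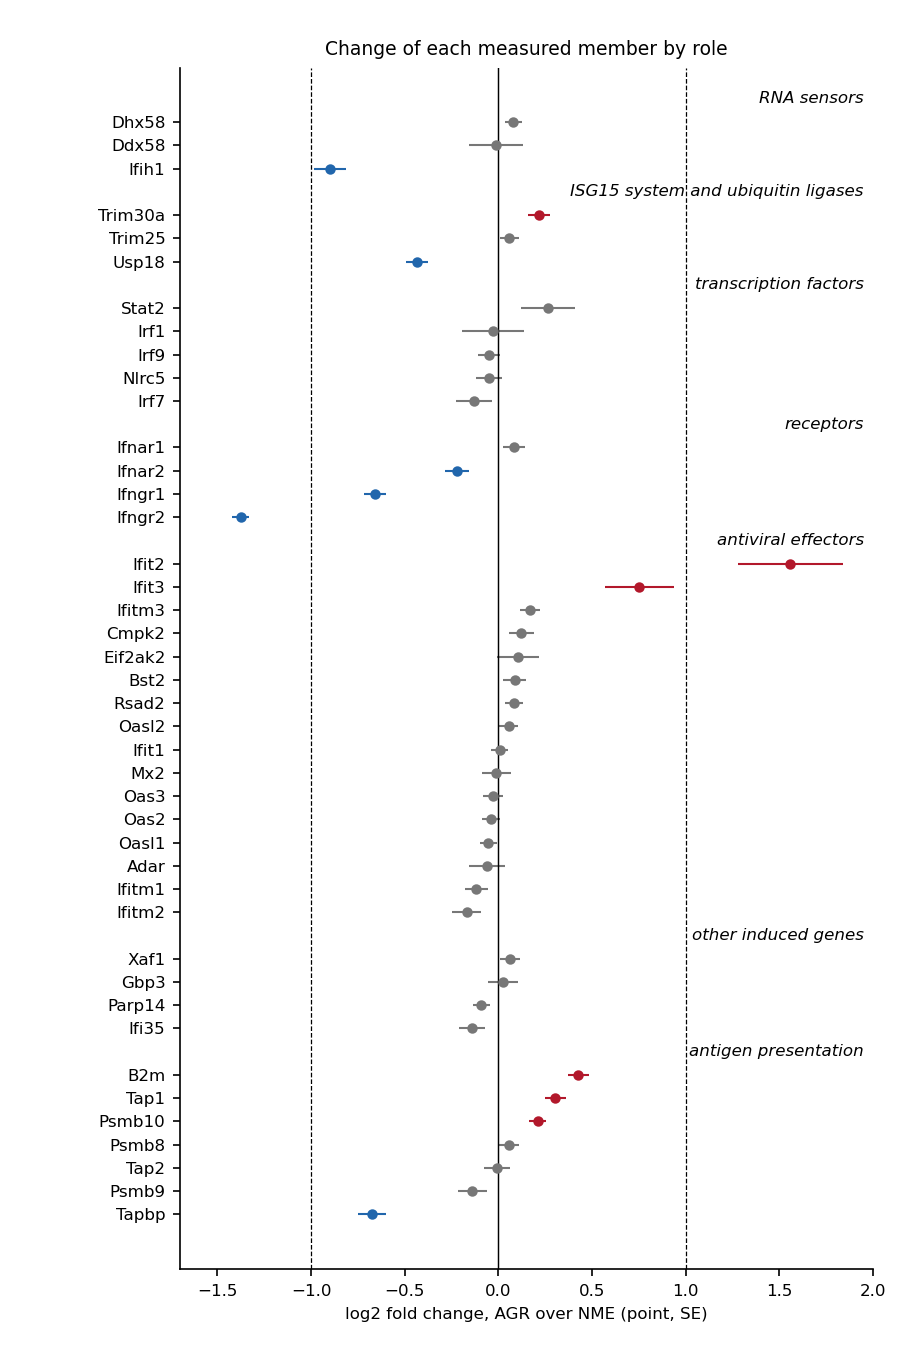
Log2 fold change of AGR over NME (point) with its SE (line) for each of the 42 members, grouped by role, with red for genes called higher, blue for genes called lower and grey for those not called by limma; the dashed lines mark a change of 1 in either direction. Most points lie near 0, Ifit2 and Ifngr2 lie beyond the dashed lines on opposite sides, and the interval of Ifit2 is the widest.

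The genes that lie beside a member on its chromosome were examined as a description of where the changes sit, with 5 measured genes on each side in the order of assembly GRCm38.p6. For the counts of neighbours, 12.6% of all genes were called higher and 11.6% lower. Around Tapbp, B2m and Usp18, not described further, 2, 1 and 1 of the 10 neighbours were called higher and 0 lower. Ifngr2 lies in a cluster of cytokine receptors on chromosome 16 (chr16:91547059-91564007) with Ifnar1, Il10rb and Ifnar2. Apart from Ifnar2, the only one of its 10 neighbours called was Gart, a gene of purine synthesis, which rose by 0.52. The interferon gene neighbours Il10rb and Ifnar1 had 0.24 and 0.08 and were not called, beside -1.38 for Ifngr2.

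Around Ifngr1 on chromosome 10 (chr10:19591949-19610229), 1 neighbour rose and 2 fell. Tnfaip3, an inhibitor of NF-kappaB signalling, rose by 0.82, whereas Map3k5, a stress kinase gene, fell by 1.19 and Pex7, a peroxisomal import receptor gene, fell by 0.57. The nearest genes on either side, Olig3 and Il22ra2, had -0.03 and -0.11 and were not called. Around Ifih1 on chromosome 2 (chr2:62595618-62646255) the next 4 genes on 1 side were also lower. Gca, Kcnh7, Fign and Grb14 were all called, with log2 fold changes from -1.21 (Gca) to -0.50 (Fign), and the next gene after them, Cobll1, rose by 0.27. The 5 genes on the other side had log2 fold changes between -0.07 and 0.12 and none was called.

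The Ifit genes lie together on chromosome 19. Ifit2 (chr19:34550550-34576534) and Ifit3 (chr19:34583119-34588982) are next to each other among the measured genes, and both rose. Ifit3b, Ifit1bl2 and Ifit1 follow, with -0.33, -0.07 and 0.01, none called. Beyond Ifit1, the creatine transporter gene Slc16a12 fell by 3.69, and on the other side the actin gene Acta2 rose by 0.44. Around Tap1 on chromosome 17, which has Psmb9, Psmb8 and Tap2 beside it, 0 of the 10 neighbours were called by limma, with log2 fold changes from -0.14 to 0.11 and a smallest adjusted p of 0.283.

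**Figure D4:**
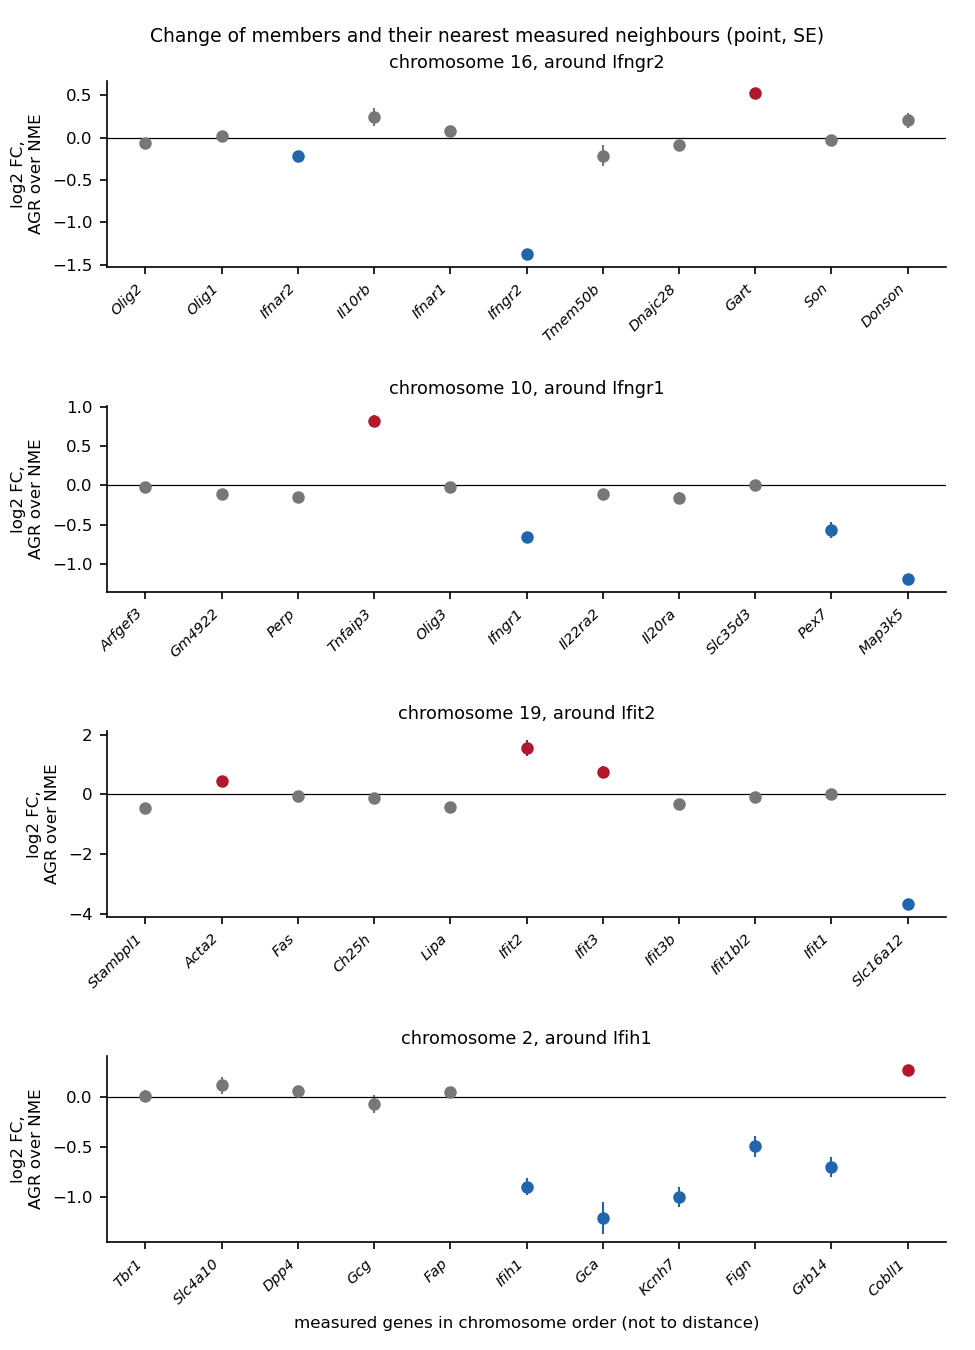
Log2 fold change of AGR over NME (point) with its SE for the members Ifngr2, Ifngr1, Ifit2 and Ifih1 and the 5 measured genes on each side, in chromosome order and not to distance, with red for called higher, blue for called lower and grey for not called. Ifngr2 at -1.38 is the lowest point of its panel, Ifit2 and Ifit3 rise side by side, and the 4 genes that follow Ifih1 are blue as well.

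Beyond the members, 146 further genes of the pathway were listed and 120 of them were measured. Of these, 10 were called higher (8.33%, beside 12.6% of all genes) and 21 lower (17.5%, beside 11.6% of all genes), with a median log2 fold change of -0.03. The interferons themselves and the lambda receptor gave 1 call among 10, a fall of 0.71 for Ifnlr1, the chain specific to interferon lambda.

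Among the 22 genes of signalling and its regulators, 3 rose and 3 fell (13.6% each, beside 12.6% and 11.6% of all genes). Sting1, the adaptor that carries the signal of cytoplasmic DNA, rose by 1.29, and Cgas, the enzyme that senses this DNA, rose by 0.44. Jak2, a kinase of the interferon gamma receptor, rose by 0.58. Ticam1, an adaptor of toll-like receptors, fell by 0.61. Irf2, an antagonist of Irf1, fell by 0.52 and the kinase gene Tbk1 fell by 0.35. Jak1 and the feedback inhibitor Socs1 had 0.04 and -0.03 and were not called.

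Among 65 other interferon-stimulated genes 4 rose (6.15%, beside 12.6% of all genes) and 14 fell (21.5%, beside 11.6% of all genes). The largest changes of the list were in the genes of the PYHIN family, whose proteins bind DNA, and they went in opposite directions. Aim2, the DNA sensor of the inflammasome, fell by 2.38 and Ifi203 fell by 1.68, whereas Ifi205 rose by 1.95. The PYHIN genes are close copies of each other, and how far their probe sets share signal was not tested. Casp12 rose by 1.49, Samhd1, which breaks down nucleotides that viruses need, by 0.91 and Plscr1 by 0.21. Casp12 was dimmer in both lines than the median probe set (5.39 and 6.88, against 7.61), and Ifi205 was dimmer than it in NME cells (6.51). The chemokine gene Cxcl10 fell by 0.92 and the ubiquitin ligase gene Rnf213 fell by 0.75.

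Of 23 other antigen presentation genes, 3 rose and 3 fell, a share of 13% each, beside 12.6% and 11.6% of all genes. Cd1d1, which presents lipids, rose by 0.64, H2-M3, which presents formylated bacterial peptides, by 0.60 and Cd274, which encodes the checkpoint ligand PD-L1, by 0.53. Psme1 and Psme2, whose products form an activator of the proteasome, had log2 fold changes of -0.60 and -0.22, both called, and Tapbpl, a relative of tapasin, fell by 0.48. The classical class I heavy chains H2-K1 and H2-D1 had no probe set of their own and are not analysed here.

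**Figure D5:**
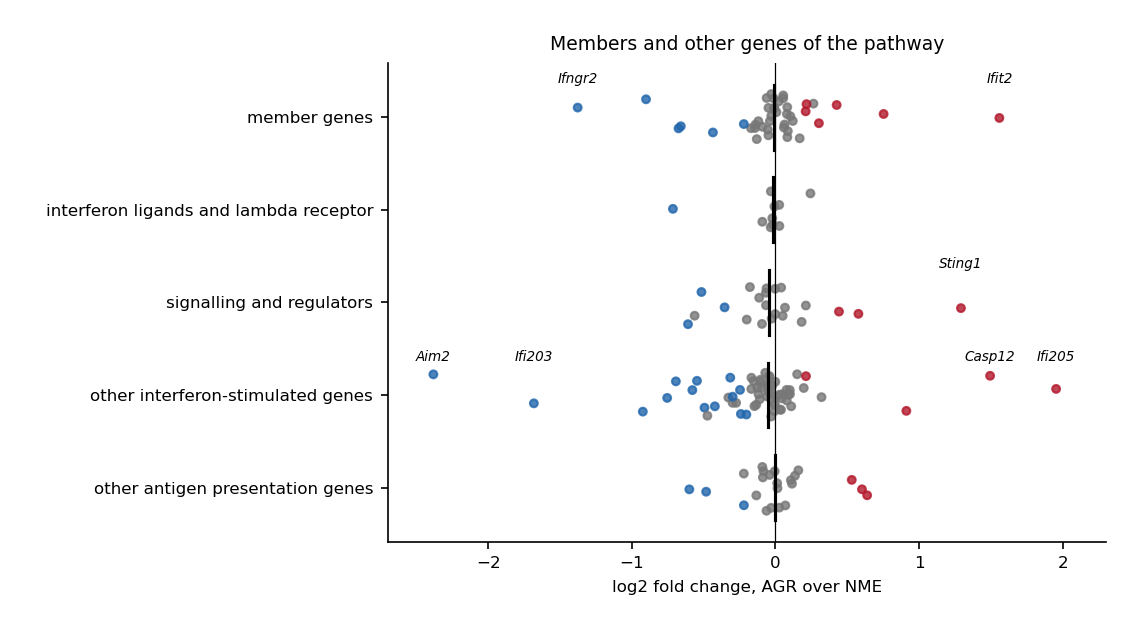
Log2 fold change of AGR over NME for the 42 measured members and the 120 other measured genes of the pathway in 4 lists (rows), with a point for each gene, red for called higher, blue for called lower, grey for not called and a black bar for the median of the row; vertical scatter within a row only separates the points. The medians of all 5 rows lie close to 0, with single genes such as Aim2 at -2.38 and Ifi205 at 1.95 far to either side.

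The labelled cell type was checked against marker genes. Of 8 epithelial markers, 6 had levels above the median of all probe sets in both lines, as had 11348 of all 19938 genes. The 6 include Egfr, which was introduced into these cells and so does not speak to the cell type. Krt8, a keratin of simple epithelium, was at 14.23 in NME and 14.13 in AGR cells. The adhesion gene Epcam (6.58 and 6.51) and Cldn7 (6.98 and 6.97) lay below the median in both lines. Cdh1, which encodes E-cadherin, fell by 0.60, the only call in that list. Egfr, which both lines overexpress, read 12.29, 12.38 and 12.26 in NME cells and 12.40, 12.75 and 12.48 in AGR cells (log2 fold change 0.23, limma adjusted p = 0.139).

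Markers of other cell types were read because immune cells carry high levels of many interferon-stimulated genes. Of 14 markers of macrophages and other immune cells, 10 were dimmer than the median probe set in both lines, among them Ptprc, the common leukocyte antigen, with 7.08 and 7.14. The mean level over the list ranged from 7.26 to 7.33 on the NME arrays and from 7.31 to 7.40 on the AGR arrays. In it Cd68 rose by 0.96 and Csf1r by 0.28, and Cd14 fell by 0.60. Cd14 was bright in both lines (11.68 in NME and 11.08 in AGR cells). Of 8 fibroblast markers 1 rose (Pdgfra, by 0.39), with list means of 7.35 to 7.48 on the NME and 7.38 to 7.46 on the AGR arrays. Above the median probe set in both lines were 3 of the 8, Col1a1 (8.86 and 8.87), Col1a2 (8.42 and 8.35) and Col3a1 (8.56 and 8.55). Of 7 endothelial markers 0 were called by limma, also at an unadjusted p under 0.05, with list means of 6.94 to 7.06 and 6.92 to 6.99. Of these 7, 2 were above the median probe set in both lines. For these counts, 12.6% of all genes were called higher and 11.6% lower. There were no detection calls to tell a dim marker from an absent one. The part of these markers in the results above was not tested.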

How the data were processed

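Each cell line, NME and AGR, was represented by 3 arrays (Affymetrix Mouse Gene 1.0 ST, total RNA), and the titles of the samples gave the line. What the authors deposited is a linear intensity for each probe set, already processed. Their notes name MAS5 with no version. That method needs mismatch probes, which are not on this array type, so how the intensities were normalized is unknown. No detection calls were used, and precision is limited by having 3 arrays a line.

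Here log2 was taken of the deposited intensity with no offset. Of 35557 probe sets, 21789 carried 1 gene symbol, 1621 several and 12147 none. Of those with 1 symbol, 21698 were matched by gene ID to RefSeq (GRCm38.p6), with 0 symbols that differed. The brightest probe set with 1 symbol stood for a gene. AGR and NME were compared in limma 3.58.1 (lmFit and eBayes, R 4.3.3) over 19938 genes with Benjamini-Hochberg adjustment. The procedure was tested on simulated data. Promoters were searched in RefSeq windows of 300 bases.

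The members, the lists and the tests were chosen with earlier results of these data known. By rule, values on every array were given for called members with an absolute log2 fold change of at least 0.5, the receptors and the transcription factors, and for each other list up to 4 called genes in each direction. Ifit1 and B2m, the promoters printed, single uncalled members and the neighbouring genes were chosen after their values were seen. The alternatives were other scaling, filters on dim genes, the mean of all probe sets, eBayes settings, the methods' t-test, an offset of 16, a block for the replicate number and leaving out each array.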

Additional observations from a re-analysis of the deposited data

How the results depend on the processing

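The members' median log2 fold change was near 0 and changed sign: 0.0133 after quantile normalization, 0.0175 with each array centred on its median, -0.0289 among genes at or above the median of all probe sets, from -0.0022 to 0.024 without single arrays and 0.0056 without both second arrays, a setting chosen after seeing the data. With the methods' t-test after Benjamini-Hochberg adjustment 3 members were called higher, losing Ifit2, Ifit3 and Trim30a, and 12 other pathway genes lower. With a fold change above 2 required, 1 member was higher and 1 lower, 3 and 2 other pathway genes, and 299 and 299 of all genes, where 2515 and 2304 were called without it. Among genes at or above the median of all probe sets, 6 other pathway genes were called higher, since fewer genes were tested. Leaving out single arrays gave 3 to 5 members higher, with 3 without the third AGR array, and 5 to 6 lower. The log2 fold change of Irf1 ranged from -0.17 to 0.12 and that of Nlrc5 from -0.0912 to 0.017 (0.0329 without both second arrays), never called. The calls of Ifngr2, Ifngr1, Ifih1, Tapbp, Usp18, B2m, Tap1 and Ifit2 held without any single array. The cause of these shifts was not tested.

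Whether the replicate numbers pair the arrays was not settled. Deviations from the line means of same-numbered arrays correlated at -0.13, 0.33 and 0.26 across all genes. Across the members they correlated at 0.06, 0.41 and 0.43. The first NME array went best with the third AGR array (0.36 across all genes, 0.43 across the members). With the replicate number as a block, 11 of the 12 member calls were kept, Ifnar2 was not called (adjusted p 0.0773) and Stat2 was (adjusted p 0.0154). Depth is not defined for arrays, and dim genes carry little information on change.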
